A study of Mus musculus with 18 samples.

Results

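Killer lectin-like receptors are C-type lectin-like proteins of the cell surface that are best known from natural killer (NK) cells and are also made by activated CD8+ T cells. Described here are 8 mouse genes of this family, *Gm156*, *Klrg1*, *Klrd1*, *Klrc1*, *Klrc2*, *Klrk1*, *Klre1* and *Klrb1c*, out of 45706 genes in the deposited tables. They were taken by symbol and matched to Ensembl identifiers. *Gm156* (ENSMUSG00000071158), which RefSeq names *Klrh1*, had been chosen as absent from single peptide DMSO cells and high in repeat peptide cells. The difference between the repeat and single DMSO groups is therefore given as a description with no test for all 8 genes. Of the 8 genes, 7 passed the filter on low counts and *Klrg1* did not.

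RNA was taken on day 8 from cultures of CD8+ T cells of OT-I mice, which carry a transgenic receptor for an ovalbumin peptide. Repeat peptide stimulated cells received the peptide daily for 5 days, kept it in the medium until day 8 and serve as the *in vitro* exhausted cells. Single peptide stimulated cells met it only at the start and were then washed and rested. At harvest the kinds of culture thus also differed in whether the peptide was present. From day 5 both kinds of culture, grown with interleukin 7 and interleukin 15, were treated either with the solvent DMSO or with 1 µM ibrutinib, a covalent inhibitor of BTK that also binds other kinases. There were 4 repeat DMSO libraries, 5 repeat ibrutinib libraries, 5 single DMSO libraries and 4 single ibrutinib libraries. The labels give every library the strain OT-1 WT, but their genotype field holds INHB-1 left over (A), btk KO-6 (B), BTK KO-1 (C), BTK KO-3 (D), btk KO-5 (E) or PKC igoni-2 (F). Libraries that share an entry are called an experiment here and lettered A to F, a reading that the labels do not state, and whether cells of B to E lacked *Btk* is not given in the sources used here. *Btk* had at most 27 counts in any library and none in 9 of 18, too few to tell. Experiments A to D gave a library of each group, E only a repeat ibrutinib library and F only a single DMSO library. The cells are a culture model with 1 transgenic receptor, and whether the cultures of a group came from separate mice is not given in the sources used here, so p-values measure the spread between these cultures.

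Libraries held between 23445922 and 51995372 expected counts in total, with 27420965 as the median. The CD8+ T cell markers *Cd3d*, *Cd3e*, *Cd3g*, *Cd8a* and *Cd8b1* summed to between 2258 and 3152 TPM, a level that corrects for transcript length in each library. Single markers within this sum differed between the cultures. *Cd8b1* averaged 321 TPM in repeat DMSO and 819 TPM in single DMSO cells, while *Cd3g* averaged 1065 and 576 TPM. The NK cell marker *Ncr1* was at 1.16 TPM or less in every library. Of the 8 markers of CD4 T, B and myeloid cells, 6 were under 1 TPM in all libraries of the repeat ibrutinib group and of both single peptide groups, and all 8 were in the repeat DMSO group, while their sum reached at most 8.58 TPM. In bulk RNA, fewer cells with a transcript and less of it per cell cannot be told apart.

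The receptors differ in what they do. The *Klrd1* product CD94 pairs with the *Klrc1* product NKG2A, an inhibitory receptor that recruits the phosphatase SHP-1 (*Ptpn6*), or with the *Klrc2* product NKG2C, an activating receptor, and both pairs bind the class Ib molecule Qa-1 (*H2-T23*). The *Klrk1* product NKG2D is an activating and costimulatory receptor that signals through the adaptor DAP10 (*Hcst*) and binds stress-induced ligands such as *Ulbp1*. The *Klre1* product pairs with those of *Klri1* and *Klri2*, *Klrb1c* encodes the activating receptor NK1.1, and *Klrg1* encodes an inhibitory receptor that binds cadherins and marks short-lived effector T cells.

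All 8 genes lie on chromosome 6 of GRCm38, and 6 of them lie close together in the NK gene complex between *Klre1* (starting at 129577905) and *Gm156* (129766568 to 129784270, minus strand). Promoters, taken from RefSeq on build GRCm38.p6 as 250 bases before and 50 bases from the annotated start on, were listed for 6 of the 8 genes, with none for *Klrd1* and *Klrg1*. The 4 shown are those of *Gm156* and of *Klrc1*, *Klrc2* and *Klrk1* in the same cluster. *Klrc2* has 2 listed starts, of which the upstream one is shown, and the windows of *Klre1* and *Klrb1c*, which were low in level, are not printed. Capitals mark matches, on either strand, to 3 motifs of factors active in stimulated CD8+ T cells: a T-box motif AGGTGT, an AP-1 motif TGANTCA and a RUNX motif TGTGGT. On the opposite strand the T-box motif reads ACACCT here, while the RUNX motif reads ACCACA.
Gm156, minus strand, chr6:129784221-129784520: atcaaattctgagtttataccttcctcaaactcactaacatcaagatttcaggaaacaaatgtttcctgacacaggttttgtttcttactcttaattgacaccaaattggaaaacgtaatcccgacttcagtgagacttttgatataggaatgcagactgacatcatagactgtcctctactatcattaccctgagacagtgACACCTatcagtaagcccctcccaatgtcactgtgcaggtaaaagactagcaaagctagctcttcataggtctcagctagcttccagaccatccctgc
Klrc1, minus strand, chr6:129678924-129679223: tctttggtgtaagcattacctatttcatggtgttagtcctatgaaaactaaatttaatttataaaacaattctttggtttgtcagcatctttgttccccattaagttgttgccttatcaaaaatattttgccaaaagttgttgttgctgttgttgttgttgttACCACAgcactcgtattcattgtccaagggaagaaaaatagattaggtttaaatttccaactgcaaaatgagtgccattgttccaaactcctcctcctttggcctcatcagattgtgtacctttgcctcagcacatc
Klrc2, minus strand, chr6:129660547-129660846: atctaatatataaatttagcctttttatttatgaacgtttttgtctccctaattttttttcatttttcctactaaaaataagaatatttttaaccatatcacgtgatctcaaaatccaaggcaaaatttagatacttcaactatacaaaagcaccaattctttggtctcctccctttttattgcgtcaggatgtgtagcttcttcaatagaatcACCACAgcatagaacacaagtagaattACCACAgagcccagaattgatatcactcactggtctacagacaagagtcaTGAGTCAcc
Klrk1, minus strand, chr6:129623815-129624114: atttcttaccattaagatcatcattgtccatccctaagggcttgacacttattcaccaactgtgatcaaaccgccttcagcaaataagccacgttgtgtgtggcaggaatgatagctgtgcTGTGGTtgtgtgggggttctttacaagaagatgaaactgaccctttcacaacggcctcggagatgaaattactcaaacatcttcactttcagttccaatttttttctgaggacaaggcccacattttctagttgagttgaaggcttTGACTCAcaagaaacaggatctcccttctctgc

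In these windows *Gm156* held the T-box letters at position -48 from the start and neither of the other motifs. The *Klrc1* window held the RUNX letters at -87. The *Klrc2* window held them at -36 and -9 and the AP-1 letters at 41, and the *Klrk1* window held the RUNX letters at -129 and the AP-1 letters at 17. From the other *Klrc2* start the same matches lie at -76, -49 and 1. Of the 2 windows listed for *Klre1*, 1 held the RUNX letters at -229 and the other held none of the 3 motifs, and that of *Klrb1c* held the RUNX letters at -89. No match overlapped another. Of 32851 RefSeq mouse promoters of this length, 13.7% held the T-box letters, 7.81% the AP-1 letters and 16.8% the RUNX letters. A match of letters is a description of the window and not a bound site.

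*Klrc1* and *Klrc2* share coding sequence, which bears on how reads are divided between them. The longest identical run spans 100 coding bases, printed here because a short read inside it fits both genes, and it ends the coding sequence of the longest coding transcript of each.
Klrc1, minus strand, chr6:129674862-129674961: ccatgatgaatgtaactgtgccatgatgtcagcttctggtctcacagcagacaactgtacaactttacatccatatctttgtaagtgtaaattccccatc
Klrc2, minus strand, chr6:129656374-129656473: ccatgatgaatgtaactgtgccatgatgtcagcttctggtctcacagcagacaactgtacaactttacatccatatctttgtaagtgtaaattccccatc
RSEM shares out reads that fit several genes, and *Klrc1* and *Klrc2* had a fractional expected count in 13 of 18 libraries, whereas the other 6 receptors had whole counts in each. Their levels are therefore partly estimates. No other pair within the 8 genes shared a run of more than 14 coding bases.

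*Gm156* was near or at 0 in single peptide cells and among the more abundant transcripts in repeat peptide cells. The repeat DMSO libraries were at 592, 202.5, 289 and 240 TPM in experiments A, B, C and D. With ibrutinib, repeat peptide cells were at 221, 97.8, 226 and 149 TPM in A to D and at 188 TPM in E. All 5 single DMSO libraries had no count, and the 4 single ibrutinib libraries had 0, 2, 0 and 4 counts in A to D. No repeat library came near a single library. In normalized counts, which scale each library to the mean effective library size, the repeat DMSO cells had 3165 ± 1492 (SD, n = 4), at least 926-fold higher than a floor of 3 counts in each single DMSO library. With ibrutinib no fold was computed, since single peptide cells stayed about that floor.

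By the mean of the group, *Gm156* ranked 343 of 12255 tested genes in TPM in repeat DMSO cells and 646 in repeat ibrutinib cells. GENCODE lists 2 transcripts of this gene, of 682 and 2000 bases. From the abundance-weighted length that RSEM gives, the short transcript made up 92.6% to 94.1% of its molecules in repeat DMSO libraries and 87.6% to 94.6% in repeat ibrutinib libraries, the lowest in experiment B of each group.

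*Klrd1*, which encodes the shared CD94 chain, was the most abundant of the 8 receptors in every group. It was at 760.5, 719, 627 and 564 TPM in repeat DMSO libraries A to D and at 278, 287, 249, 291 and 330 TPM in single DMSO libraries A, B, C, D and F. The repeat ibrutinib libraries spanned 606 to 838 TPM and the single ibrutinib libraries 259 to 311 TPM. Repeat and single libraries did not overlap with either treatment, and this gene had the smallest ratio of the 7 expressed receptors, 2.1-fold between the mean normalized counts of the DMSO groups.

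*Klrc1*, the inhibitory partner, showed a wider gap. Its levels were 403, 342, 380 and 332 TPM in repeat DMSO libraries A to D and 12.9, 25.1, 5.52, 10.6 and 22.7 TPM in single DMSO libraries A, B, C, D and F. With ibrutinib the repeat libraries spanned 263 to 346 TPM and the single libraries 6.51 to 22.3 TPM. The DMSO means differed 21.6-fold in normalized counts, without overlap.

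*Klrc2*, the activating partner, was far lower than *Klrc1* throughout. It stood at 28.2, 15.6, 15.3 and 10.4 TPM in repeat DMSO libraries A to D, against 0.35 to 2.76 TPM in single DMSO libraries, a ratio of 9.68 between the mean normalized counts. *Klrc1* made up 93.3% to 96.8% of the summed TPM of *Klrc1*, *Klrc2* and *Klrc3* in repeat DMSO libraries and 86.3% to 94.0% in single DMSO libraries. The inhibitory transcript was the main one of these genes in each of these libraries, and the shares of the groups overlapped.

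*Klrk1*, which encodes NKG2D, was present in all groups. Repeat DMSO libraries A to D were at 431, 412, 393 and 324 TPM and single DMSO libraries A, B, C, D and F at 74.1, 82.3, 54.2, 46.9 and 100.5 TPM. The repeat ibrutinib libraries were tightly grouped at 337 to 404 TPM and the single ibrutinib libraries at 45.9 to 68.8 TPM. The DMSO means differed 4.81-fold in normalized counts and the groups did not overlap.

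*Klre1* and *Klrb1c* were low. *Klre1* spanned 2.83 to 8.15 TPM in repeat DMSO libraries and 0 to 0.7 TPM in single DMSO libraries. *Klrb1c* spanned 2.64 to 11.3 TPM and 0.51 to 1.94 TPM in the same groups. For *Klrb1c* the highest libraries of both repeat groups came from experiment B, at 11.3 TPM with DMSO and 25.2 TPM with ibrutinib, and *Fcer1g*, a signalling chain of NK cell receptors, was also highest there among repeat libraries, at 8.97 and 11.5 TPM. The part of other cells in these values was not tested. *Klrg1* had at most 6 counts in any library and none in 15 of 18, which is too few to compare.

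In order of mean TPM, repeat DMSO cells had *Klrd1* first (668 ± 88.6, SD, n = 4). Its libraries lay above all those of *Klrk1* and *Klrc1* but not of *Gm156*, whose library A at 592 TPM passed *Klrd1* library D at 564 TPM. *Klrk1* (390.0 ± 46.4), *Klrc1* (364 ± 32.8) and *Gm156* (331 ± 178) followed with overlapping libraries. *Klrc2* (17.4 ± 7.61), *Klrb1c* (6.03 ± 4.02) and *Klre1* (4.76 ± 2.40) came next, each overlapping its neighbour. The single DMSO cells kept *Klrd1* (287 ± 29.0, SD, n = 5), *Klrk1* (71.6 ± 21.6) and *Klrc1* (15.3 ± 8.28) in that order without overlap, then *Klrc2* (1.60 ± 1.03), *Klrb1c* (1.48 ± 0.583) and *Klre1* (0.432 ± 0.266), each overlapping its neighbour, whereas *Gm156* stood at 0. All 7 expressed receptors had every repeat DMSO library above every single DMSO library in normalized counts, which held for 22.3% of all tested genes. Since *Gm156* was picked on this contrast, nothing is read from that count.

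**Figure D1:**
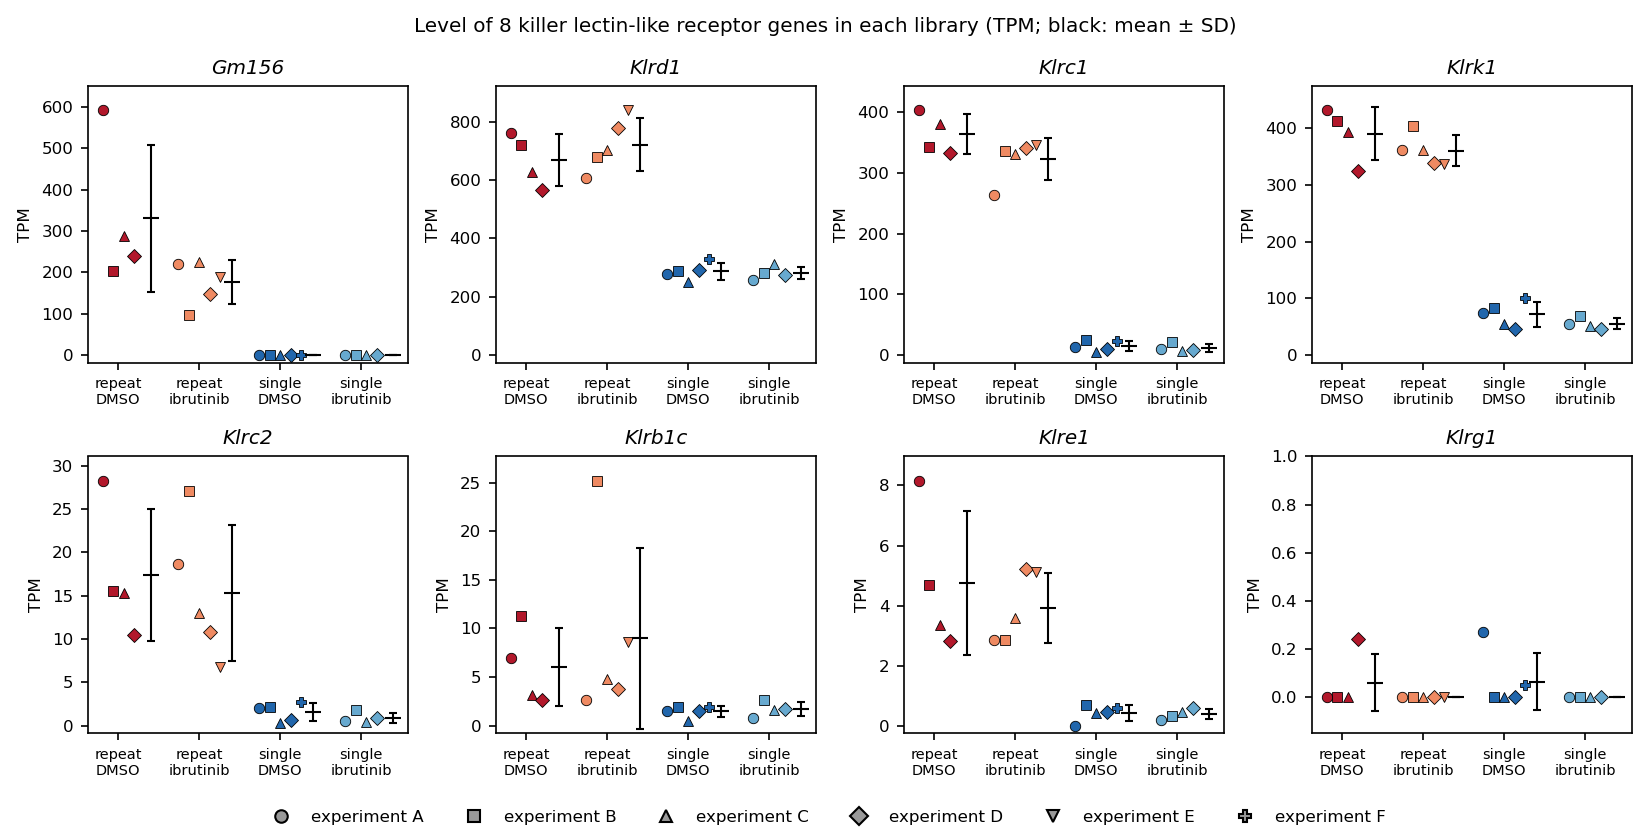
Level of each receptor gene in TPM (vertical axes, linear and different in each panel) in the 18 libraries by group, with the experiment as marker shape and the mean ± SD as black bars. Apart from *Klrg1*, which stays under 1 TPM, the repeat DMSO libraries sit above the single DMSO libraries in every panel.

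The first question was whether ibrutinib changed the receptors in repeat peptide cells. None of the 7 tested receptors passed the test. With the experiment in the fit, the log2 estimate moved most for *Klre1* (from -0.05 to -0.46), *Klrb1c* (from 0.67 to 0.31) and *Klrd1* (from 0.29 to -0.01). *Gm156* had the largest difference, and each of the 4 experiments with both libraries had less of it with ibrutinib. A gene was called where edgeR's quasi-likelihood test gave a Benjamini-Hochberg adjusted p under 0.05, its normalized counts averaged 50 or more and its log2 fold change was beyond 0.2 in size, and 5.92% of 12255 tested genes were. By edgeR 0 of 7 receptors were called, and DESeq2 also called 0. Only *Gm156* had an unadjusted edgeR p under 0.05. Nothing is read from it, since the gene was picked for its high level in repeat peptide cells, whose libraries enter this difference. The median log2 fold change of the 7 was -0.03, beside 0.00 over all tested genes.

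*Gm156* had 5383, 2149, 2627 and 2502 normalized counts in repeat DMSO libraries A to D and 1954, 1036, 2201 and 1624 in the ibrutinib libraries of the same experiments, with 2781 in E. The ibrutinib value was 0.363, 0.482, 0.838 and 0.649 times the DMSO value in A, B, C and D, although the groups as a whole overlapped. The fitted log2 difference was -0.72 (SE 0.305). Without repeat DMSO library A, the highest, it was -0.34. When the experiment entered the fit as a replicate block, the difference was -0.85 (SE 0.201), which met the calling rule. In that fit 5.35% of all tested genes were called lower. *Gm156* was picked for its high level in repeat peptide cells, and the repeat DMSO libraries used for that choice enter this difference, so it is a description and nothing is read from the call. None of the other 6 receptors was called with the block.

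The intervals of the other 6 receptors all held 0. *Klrk1* differed by -0.02 on the log2 scale (95% interval -0.32 to 0.28, edgeR adjusted p = 0.958) and was lower with ibrutinib in 3 of 4 experiments. *Klrc1* differed by -0.03 (95% interval -0.67 to 0.61, edgeR adjusted p = 0.963), with ratios of 0.633, 0.848, 0.934 and 1.11 in A to D. *Klrd1* differed by 0.29 (95% interval -0.19 to 0.77, edgeR adjusted p = 0.497), and its highest library was repeat ibrutinib E with 16042 normalized counts. With the block the difference was -0.01 for *Klrd1*, -0.13 for *Klrk1*, -0.21 for *Klrc1*, -0.46 for *Klre1* and -0.01 for *Klrc2*, beside -0.05 for *Klre1* and -0.12 for *Klrc2* without it. The intervals of *Klrc2* (-1.01 to 0.78) and *Klre1* (-1.12 to 1.02) were wide, and changes within them remain possible with these libraries.

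*Klrb1c* had a fitted log2 difference of 0.67 (95% interval -0.46 to 1.80, edgeR adjusted p = 0.505). Its repeat ibrutinib library B held 970 normalized counts, the next highest 538. Without that library the difference was 0.06, and without repeat DMSO library B it was 1.29 (edgeR adjusted p = 0.188). With the block it was 0.31.

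**Figure D2:**
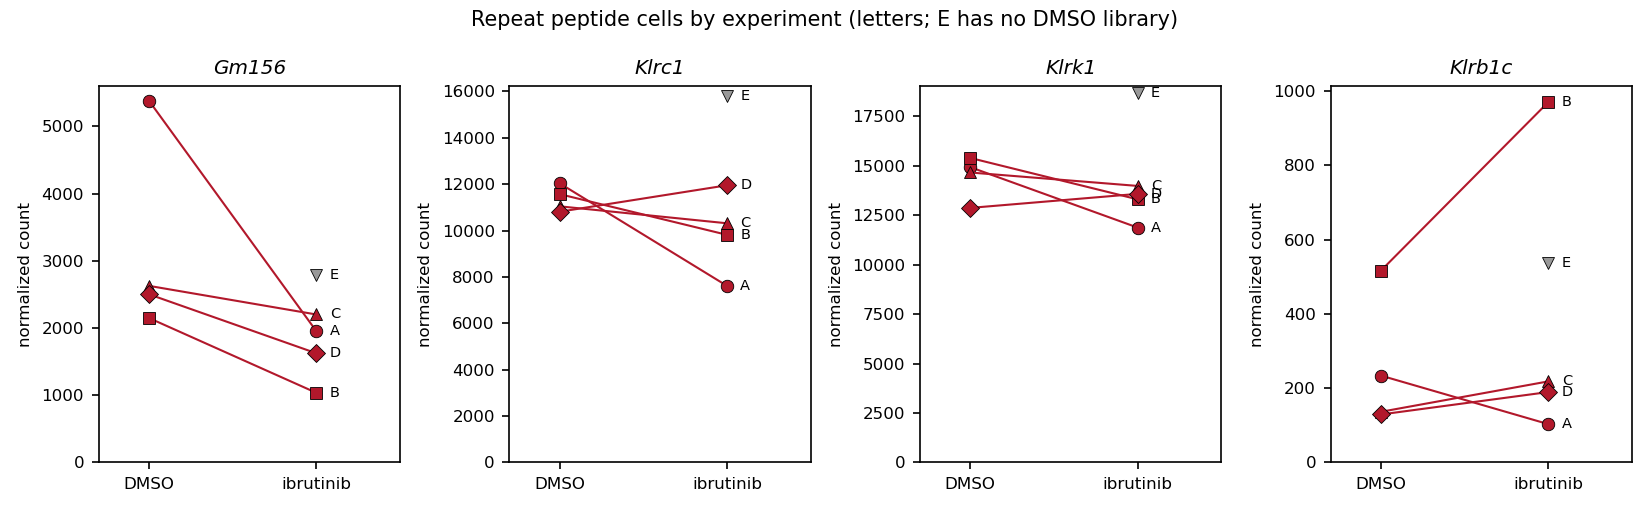
Normalized counts (vertical axes, linear from 0) of *Gm156*, *Klrc1*, *Klrk1* and *Klrb1c* in repeat peptide cells with DMSO and with ibrutinib. Lines join libraries of the same experiment. All 4 lines of *Gm156* go down, and those of the other genes go both ways.

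In single peptide cells 0 of 6 receptors were called for ibrutinib by edgeR or by DESeq2, where 3.04% of all tested genes were called. *Gm156* was not compared there. The largest difference beside its error was that of *Klrk1*, the 1 receptor with an unadjusted p under 0.05. It had 2859, 3213, 2563 and 2526 normalized counts in single DMSO libraries A to D, 3884 in F, and 2020, 2585, 2736 and 2095 in single ibrutinib libraries A to D. The groups overlapped, and the log2 difference was -0.35 (SE 0.144, 95% interval -0.65 to -0.05, edgeR adjusted p = 0.266). *Klrc2* had the largest estimate, -0.75 (95% interval -1.76 to 0.26), which ran from -1.22 to -0.49 with 1 library left out and was -0.43 with the block. *Klrc1* differed by -0.28 (95% interval -0.95 to 0.38), from -0.69 to -0.10 with 1 library left out and -0.11 with the block, and *Klrd1* by 0.02 (95% interval -0.46 to 0.50). Differences anywhere within these intervals remain possible with these libraries.

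The difference between the ibrutinib effects in the 2 kinds of culture was tested by an interaction term. Of the 6 receptors, 0 were called by edgeR or by DESeq2 and 0 had an unadjusted p under 0.05, and 1.26% of all tested genes were called. The estimates ran from 0.01 for *Klre1* to 0.64 for *Klrc2* on the log2 scale without the block. With it 4 of the 6 were negative, at -0.03 for *Klrd1*, -0.11 for *Klrc1*, -0.48 for *Klre1* and -0.02 for *Klrb1c*, so no direction is given. For *Klrk1* the interval was -0.09 to 0.76 and for *Klrc1* -0.67 to 1.18.

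With ibrutinib present, repeat peptide cells still had far more of these transcripts than single peptide cells. All 6 tested receptors were called and higher, where 18.7% of all tested genes were called and higher. *Klre1* averaged 11.2 normalized counts in single ibrutinib cells and met the minimum of 50 only through its repeat libraries. It could thus come out only higher, and nothing is read from its call. The median log2 fold change of the 6 was 2.90, beside -0.02 over all tested genes. *Klrc1* was 25.6-fold higher (log2 4.68, SE 0.373, edgeR adjusted p = 3.33e-08), with 9815 to 15823 normalized counts in 4 repeat ibrutinib libraries and 7615 in the fifth, A, against 306 to 747.5 in single ibrutinib libraries. *Klrc2* was 15-fold higher (log2 3.91, SE 0.513, edgeR adjusted p = 8.23e-06) and *Klrk1* 6.06-fold (log2 2.60, SE 0.156, edgeR adjusted p = 1.22e-09). Within experiments A to D, *Klrk1* was 5.88, 5.15, 5.11 and 6.48 times higher, the most even of the ratios.

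*Klre1* had 59.15 to 176 normalized counts in repeat ibrutinib and 4.74 to 18.5 in single ibrutinib libraries, and no test is given for it. *Klrd1* was 2.53-fold higher (log2 1.34, edgeR adjusted p = 0.000193). *Klrb1c* was 4.68-fold higher (log2 2.23, edgeR adjusted p = 0.00464), and its groups met: the lowest repeat ibrutinib library, A, had 103 normalized counts and the highest single ibrutinib library, D, had 105. Without repeat ibrutinib library B the log2 difference of *Klrb1c* fell to 1.64. Both DMSO and ibrutinib comparisons of stimulation thus had the repeat libraries higher, from separate libraries at each treatment but from the same experiments. The mean ratios with ibrutinib were 25.7 for *Klrc1*, 15.1 for *Klrc2*, 9.25 for *Klre1*, 6.06 for *Klrk1*, 4.7 for *Klrb1c* and 2.53 for *Klrd1*.

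**Figure D3:**
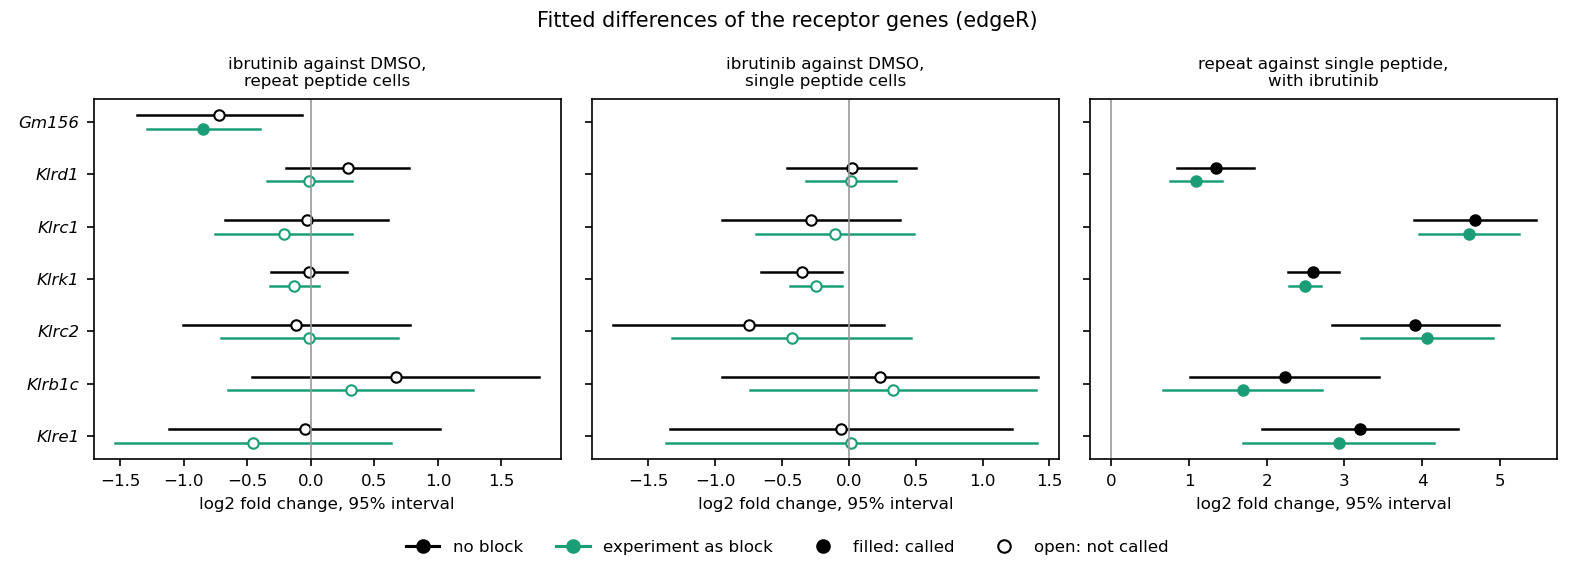
Fitted log2 fold changes (points) with 95% intervals (lines) of the receptors in 3 comparisons, without (black) and with (green) the experiment as a block. Filled points were called. The stimulation differences with ibrutinib all lie above 0, whereas among the ibrutinib differences only that of *Gm156* with the block is filled, a gene whose choice used the repeat DMSO libraries.

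Markers of other lymphocytes moved in part with stimulation. The 6 NK cell markers summed to 6.41 to 15.5 TPM in repeat DMSO libraries and 0.25 to 2.8 TPM in single DMSO libraries, with 5.99 to 9.65 and 0.54 to 1.23 TPM in the ibrutinib groups. Most of the repeat sum was *Klri2*, itself a receptor of this family, and *Klrb1b*, while *Ncr1* had a mean of 0.0075 TPM in repeat DMSO and 0.314 TPM in single DMSO cells, and the means of *Klra4*, *Klra8* and *Klra9* stayed at 0.292 TPM or less in every group. The 4 markers of gamma delta and innate-like T cells went the other way, at 21.8 to 41.5 TPM in repeat DMSO and 75.4 to 132 TPM in single DMSO libraries. Their part in the receptor levels was not tested.

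The neighbours in the NK gene complex were uneven. Of the 20 protein-coding genes from *Klre1* to *Klra1*, only *Klrd1*, *Klrk1*, *Klrc1* and *Gm156* had means over 100 TPM in repeat DMSO cells. Next to *Klrc1*, *Klri1* had a mean of 0.02 TPM in repeat DMSO cells, and *Klri2*, between it and *Gm156*, had 8.56 TPM. Beyond *Gm156*, *Klra17* was at 2.17 TPM and *Klra5*, which encodes a receptor of the Ly49 family, at 63.6 TPM, whereas *Klra4*, *Klra8*, *Klra9*, *Klra10* and *Klra1* had means under 0.2 TPM in the same cells.

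**Figure D4:**
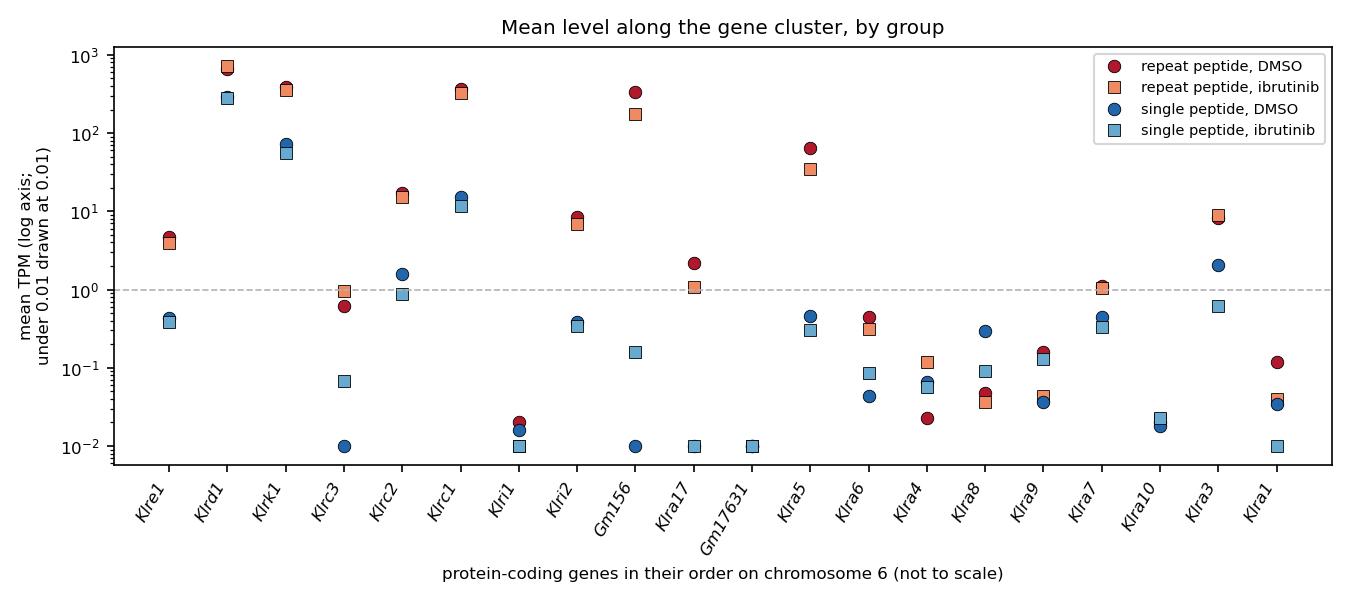
Mean TPM (log axis, values under 0.01 drawn at 0.01) of the 20 protein-coding genes from *Klre1* to *Klra1* in their order on chromosome 6, by group. *Klrd1*, *Klrk1*, *Klrc1* and *Gm156* exceed 100 TPM in both repeat groups, and many *Klra* genes stay under 1 TPM in each group.

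Of 20 other genes of the family that were listed, 19 besides the 8 had an entry and 8 passed the filter on low counts (*Klrh1* on that list is *Gm156*). Of these, *Klra7*, *Klra17*, *Klrb1a*, *Klrb1b* and *Klrb1f* averaged 9.56 to 46.4 normalized counts. A call required a mean of 50 or more, so these genes could not be called in any comparison. Only *Klra3*, *Klra5* and *Klri2* could be. None of the 8 was called for ibrutinib in either culture or for the interaction. The median log2 fold change of the 8 was -0.44 in repeat and -0.46 in single peptide cells, beside 0.00 and 0.01 over all tested genes. In single peptide cells *Klra17*, *Klrb1a* and *Klrb1b* had at most 16 counts summed over a group, so nothing is read from the median there. Over all tested genes 5.92%, 3.04% and 1.26% were called in these comparisons. With ibrutinib, 3 of 8 were called higher in repeat than in single peptide cells, and 0 lower. These 3 are the genes that could be called at all. Over all tested genes 18.7% were called higher and 19.6% lower. The 3 genes are named for passing the test. *Klra5* had 494.8 to 1097 normalized counts in repeat ibrutinib and 0 to 9.27 in single ibrutinib libraries. The latter lie about the floor of 3 counts. *Klri2* had 463 to 781 and 26.6 to 42.7, and *Klra3* had 99.5 to 317 and 2.84 to 19.7. All 3 genes averaged under 50 in both single peptide groups and met the minimum only through their repeat libraries. They could thus come out only higher. No fold or test is given for them, and nothing is read from their calls. For ibrutinib in single peptide cells, *Klra3* averaged 42.2 normalized counts with DMSO and 13.2 with the drug. The log2 difference was -1.67 (edgeR adjusted p = 0.0577), and it was called in 4 of 26 alternative fits. With the experiment as a replicate block it was called (log2 -1.61, edgeR adjusted p = 0.0153), beside 1114 of 12255 tested genes. Since only the repeat libraries lift *Klra3* over the minimum of 50, nothing is read from these calls.

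Of 10 adaptors and signalling proteins, 9 were tested. Among them, *Fcer1g* and *Syk* averaged 16.3 and 7.52 normalized counts. Both lie under the minimum of 50 for a call, so neither could be called in any comparison. *Ptpn6*, which encodes the phosphatase SHP-1 that inhibitory receptors recruit, was the 1 of 9 called for ibrutinib in repeat peptide cells, beside 5.92% of all tested genes, and it fell. It had 15511 to 18957 normalized counts in the 4 repeat DMSO libraries and 11363 to 13667 in the 5 repeat ibrutinib libraries, without overlap (log2 -0.48, SE 0.101, edgeR adjusted p = 0.00705). It also fell in single peptide cells, from 9453 ± 898 (SD, n = 5) to 5882 ± 629 (SD, n = 4; log2 -0.69, SE 0.103, edgeR adjusted p = 0.00185), again the 1 of 9, beside 3.04%. *Ptpn6* was lower with ibrutinib in all 4 experiments of either culture, and the interaction was not called (0.20 on the log2 scale, edgeR adjusted p = 0.677).

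In the ibrutinib groups *Ptpn6* was higher in repeat than in single peptide cells (log2 1.07, edgeR adjusted p = 3.07e-07), and *Grb2* (-0.34), *Vav1* (-0.26) and *Hcst* (-0.71) were called lower, 3 of 9 beside 19.6% of all tested genes. *Hcst*, the DAP10 adaptor of NKG2D, had an edgeR adjusted p of 0.0497, near the threshold, and was called in 9 of 26 alternative fits, with log2 differences from -1.03 to -0.48. In repeat peptide cells *Hcst* averaged 273 ± 101 normalized counts (SD, n = 4) in the DMSO libraries and 478 ± 225 (SD, n = 5) in those treated with ibrutinib, higher in 4 of 4 experiments but not called (log2 0.81, SE 0.293, edgeR adjusted p = 0.108). *Tyrobp*, the DAP12 adaptor of NKG2C, was at 2.29 TPM or less in every library.

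Of 16 ligands, 12 had an entry and 5 were tested. Among them, *Cdh1* averaged 33.3 normalized counts, under the minimum of 50, and could not be called in any comparison. By edgeR 0 of 5 were called for ibrutinib in repeat or in single peptide cells, beside 5.92% and 3.04% of all tested genes. *H2-T23*, which encodes the ligand of the CD94 receptors, was the 1 of 5 called in the interaction, beside 1.26% of all tested genes (log2 0.62, SE 0.147, edgeR adjusted p = 0.0454). It had 10580 ± 1202 normalized counts (SD, n = 4) in repeat DMSO cells and 13019 ± 1510 (SD, n = 5) in repeat ibrutinib cells, higher in 4 of 4 experiments. In single peptide cells it had 18524 ± 1283 (SD, n = 5) and 14871 ± 1027 (SD, n = 4), lower in 4 of 4. Neither effect alone was called (0.30 and -0.32, edgeR adjusted p = 0.0957 and 0.132), and the interaction was called in 8 of 25 alternative fits, with edgeR or DESeq2 adjusted p from 0.00227 to 0.102. With the replicate block all 3 were called (0.24, -0.32 and 0.55, edgeR adjusted p = 0.0293, 0.00683 and 0.00292). The block also raised the calls over all 12255 tested genes, to 1694, 1114 and 679 in these comparisons. *H2-T23* had a fractional expected count in 15 of 18 libraries, so its levels are partly estimates.

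*Ulbp1*, a ligand of NKG2D, was higher in repeat than in single peptide cells with ibrutinib (log2 1.63, SE 0.256, edgeR adjusted p = 6.1e-05). *Clec2i* (0.81, edgeR adjusted p = 0.0412) and *Clec2d* (-0.75, edgeR adjusted p = 0.0396), which encode C-type lectins bound by NKR-P1 receptors, were near the threshold and called in 18 and 16 of 26 alternative fits. With the block *Ulbp1* was also called lower with ibrutinib in single peptide cells (-0.85, edgeR adjusted p = 0.00392), and its interaction was called (0.91, edgeR adjusted p = 0.0308). Over all 12255 tested genes 1114 and 679 were called in these blocked comparisons. Transcripts of receptor and ligand were measured in the same cultures, and no binding was measured.

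The 5 tested genes whose profile was most like that of *Gm156* were found by the root mean square difference of log2 CPM, each gene centred on its own mean, over the 18 libraries. They were *Igfbp7* (1.4), *Chl1* (1.47), *Slc17a6* (1.53), *Spp1* (1.60) and *Gzmc* (1.76). *Gzmc*, which encodes granzyme C, had group means of 523 and 152 TPM in repeat cells with DMSO and ibrutinib and of 2.27 and 0.448 TPM in single peptide cells. *Igfbp7* had 232 and 144 TPM in repeat peptide cells and under 1 TPM in the others. Of the other receptors, *Klrc1* was nearest to *Gm156* at 2.7, and *Klrd1*, which single peptide cells keep, was farthest at 4.37. All these distances take in the gap between repeat and single peptide libraries, on which *Gm156* was picked, so they are a description only.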

How the data were processed

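RNA-seq was measured in 18 libraries of cultured OT-I CD8+ T cells, grouped by the labels. Per the labels and the study's methods, reads of strand-specific libraries of polyadenylated RNA were trimmed by the authors and quantified against GRCm38 by RSEM 1.3.1 with STAR as its aligner, giving 1 deposited gene table per library. Expected counts in it, as deposited, estimate the reads of each gene, and reads that fit several genes are divided among them. Its TPM values, scaled by the authors for transcript length and to the same total, gave levels and were not tested. The authors also deposited transcript lengths, which served for the transcript share of *Gm156* and for an offset.

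For 27903 genes that GENCODE M21 lists as protein-coding or lncRNA, expected counts were rounded to integers. Tools were edgeR 4.0.16, limma 3.58.1 and DESeq2 1.42.0 in R 4.3.3. After filterByExpr, 12255 genes were scaled by TMM, put into glmQLFit (robust) with all 4 groups in 1 fit, and compared with glmQLFTest, with p-values adjusted over all of them. Calls required an adjusted p under 0.05, normalized counts averaging 50 or more and a log2 fold change beyond 0.2 in size. Standard errors are the log2 fold change over the root of F, and intervals are at 95%. At a median total of 27420965 counts, counting error matters only for genes of few counts. Bounds and the floor of 3 counts per library cover counting error only. The script was tested on simulated counts.

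Libraries of the same experiment, a shared entry in the labels' genotype field, deviated together from their group means (24 pairs, correlation 0.16 to 0.494, median 0.325). Pairs from different experiments overlapped that range (97 pairs, -0.44 to 0.404, median -0.0765). The entry was taken to pair libraries, and a fit with it as a replicate block is given beside results that it changes. Named were all 8 receptors, the members of each list called for ibrutinib in repeat peptide cells, and the 5 genes with a profile nearest to *Gm156*. Genes of other calls were named after their values were seen. The receptors and the lists were chosen with earlier results of these data known. Alternatives were DESeq2 size factors, DESeq2's Wald test, all gene types, no count filter, no minimum of the mean count, an offset for effective length, only the groups compared, the block, and each library left out.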

Additional observations from a re-analysis of the deposited data

Results flagged for a closer look

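Within groups of 4 or 5 libraries, the highest or lowest normalized count of the receptors and of the 9 list genes named with values was compared with its nearest neighbour by Dixon's ratio. Of 62 groups 6 stood out, where chance flags about 1 in 20. *Gm156* had 5383 normalized counts in repeat DMSO library A, against 2627 in the next. *Klrc1* had 747.5 in single ibrutinib library B, against 369 in the next, and *Klrb1c* had 41.7 in single ibrutinib library A, against 95.5 in the next. Among ligands, *Ulbp1* had 260 normalized counts in single ibrutinib library C (next 166), *Clec2i* 1236 in repeat ibrutinib library A (next 763) and *Clec2d* 537 in single DMSO library C (next 991).

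The ibrutinib effect on *H2-T23* differed between repeat and single peptide cells by 0.62 on the log2 scale (edgeR adjusted p = 0.0454), with the values given above.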

How the results depend on the processing

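The count of called receptors was the same under 30 of 31 alternatives that kept all libraries. With the experiment as a replicate block, 1 receptor (*Gm156*) and not 0 was called for ibrutinib in repeat peptide cells, from which nothing is read since its choice used the repeat DMSO libraries, and the block changed no other call among the receptors. The range over the fits that left out 1 library each was 0 to 0 called for both ibrutinib comparisons and the interaction, and 6 to 6 for repeat against single peptide with ibrutinib. *Klre1*, which could come out only higher there, is among these 6. Over all genes, 726 were called for ibrutinib in repeat peptide cells without the block and 1694 with it. For ibrutinib in single peptide cells these counts were 373 and 1114, and for the interaction 154 and 679. Without repeat DMSO library A *Gm156* was at -0.34, and over all libraries left out it ran from -0.89 to -0.34 (edgeR adjusted p 0.129 to 0.537).

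Signs turned only for differences that were not called, of up to 0.44 on the log2 scale in the fit as reported, and the cause was not tested. With the block the log2 difference of *Klrd1* for ibrutinib was -0.012 in repeat peptide cells and that of *Klre1* was 0.018 in single peptide cells, and the interactions of *Klrd1*, *Klrc1*, *Klre1* and *Klrb1c* were -0.029, -0.109, -0.476 and -0.016. For *Klrk1* in repeat peptide cells only the compared groups gave 0.006 and the length offset 0.009. For *Klrd1* in single peptide cells DESeq2's size factors and its Wald test both gave -0.003, and the length offset gave -0.03 for the interaction of *Klre1*.

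With 1 library left out, ibrutinib differences in repeat peptide cells ran from -0.195 to 0.089 for *Klrc1*, -0.326 to 0.135 for *Klrc2*, -0.133 to 0.055 for *Klrk1* and -0.33 to 0.27 for *Klre1*. In single peptide cells they ran from -0.14 to 0.14 for *Klrd1* and -0.41 to 0.18 for *Klre1*. The interaction ran from -0.27 to 0.37 for *Klre1* and -0.16 to 1.07 for *Klrb1c*. Counts were few for *Klrg1* (at most 6 in any library) and, in single peptide libraries, for *Gm156* (at most 4) and *Klre1* (at most 18), where *Klrc2* and *Klrb1c* also had as few as 16 and 27. How much of the error of each receptor is counting error was not computed.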
